A study of Rattus norvegicus with 9 samples.

Results

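The miR-29 family was followed in small RNA libraries of cultured rat cartilage progenitor cells. Its members were taken by name, as every row of the deposited count table called miR-29a, miR-29b or miR-29c with any copy number and arm. This gave 6 of 726 rows, the leading arms rno-miR-29a-3p, rno-miR-29b-3p and rno-miR-29c-3p and the arms rno-miR-29a-5p, rno-miR-29b-5p and rno-miR-29c-5p, written below without the species prefix. The cells were wild-type (WT) primary cultures from condylar cartilage, and the 3 groups had 3 libraries each. P9 cells had been cultured to passage 9, as a model of replicative senescence. FFSS cells were passage 3 cells exposed to flow fluid shear stress. P3 cells, at passage 3 without that stress, were the control. The sources used here do not give strain, age, sex, the strength and duration of flow, or whether replicates came from separate animals or cultures. All p-values therefore rest on library-to-library spread, which may be technical.

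A mature miRNA guides the silencing complex to messenger RNAs that pair with its seed, the bases next to its 5′ end. The miR-29 family is known for silencing messenger RNAs of fibrillar collagens, elastin and other matrix proteins, and of the DNA methyltransferases that set new methylation. TGF-β signalling lowers the family in fibroblasts, and in human fibroblasts it has been reported to rise with replicative senescence. Each hairpin yields a 5p and a 3p arm, and for miR-29 the 3p arm is the one usually taken up by the silencing complex.

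The 3p arms are shown first because the results turn on how alike they are. Capitals mark the seed, bases 2 to 8 counted from the 5′ end.
miR-29a-3p: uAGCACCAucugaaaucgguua
miR-29b-3p: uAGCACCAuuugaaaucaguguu
miR-29c-3p: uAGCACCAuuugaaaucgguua
All 3 carry the seed AGCACCA, and no other mature name in the RefSeq table has it. miR-29a-3p and miR-29c-3p differ at 1 base, C10U. miR-29b-3p differs from miR-29c-3p at 3 of the 22 positions compared, as A18G, G21U and U22A, and is 1 base longer. The 3′ end in which miR-29b differs holds an element linked to nuclear import in human cells. Outside the family, the closest of the 578 rows with a sequence in the table differed from miR-29a-3p and miR-29c-3p at 7 positions.

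The 5p arms do not share a seed, which is again in capitals.
miR-29a-5p: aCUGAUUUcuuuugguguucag
miR-29b-5p: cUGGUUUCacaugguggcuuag
miR-29c-5p: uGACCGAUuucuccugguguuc
They differed from each other at 13 to 17 of 22 positions, far more than the 3p arms do. All 6 rows were matched by name to the RefSeq sequences, build GRCr8. The deposited table holds no coordinates, and Rnor_6.0 is the build in the submitters' processing notes, so the positions given here are those of GRCr8 only.

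The family comes from a pair of clusters. On chromosome 4, minus strand, Mir29a (chr4:60617955-60618042) and Mir29b1 (chr4:60618334-60618414) lie 291 bases apart. On chromosome 13, plus strand, Mir29b2 (chr13:109098831-109098911) and Mir29c (chr13:109099359-109099446) lie 447 bases apart. Both copies of miR-29b give the identical 3p arm, so its reads belong to neither cluster alone. The row miR-29b-5p matches the 5p arm of Mir29b2 in RefSeq, and the 5p arm of Mir29b1 was not analysed here. The hairpins whose arms are set against each other below are these, with both mature arms in capitals.
Mir29a: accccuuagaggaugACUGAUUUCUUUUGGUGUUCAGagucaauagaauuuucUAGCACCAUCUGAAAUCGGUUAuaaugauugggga
Mir29c: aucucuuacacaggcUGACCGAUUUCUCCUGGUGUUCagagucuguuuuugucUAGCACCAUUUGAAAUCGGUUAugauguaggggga

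Each 3p arm also has a partner annotated on the opposite strand, and these partners bear on what the counts mean. Capitals mark the bases complementary to the miR-29 seed.
miR-3556a: cgauuucagaUGGUGCUa
miR-3587: aacacugauuucaaaUGGUGC
miR-3556b: accgauuucaaaUGGUGCUa
They overlap miR-29a-3p, the miR-29b-3p of Mir29b1 and miR-29c-3p by 18, 21 and 20 bases, with 0 differences from the reverse complement. The miR-3587 row held the same number of reads as miR-29b-3p in all 9 libraries, from 190 to 526. The miR-3556b row differed from miR-29c-3p by at most 4 reads in any library. The miR-3556a row, in contrast, held 3.93% to 7.70% of the reads of miR-29a-3p. The sources used here do not say whether counting used the strand. A miR-29b-3p or miR-29c-3p read cannot be told apart from one of its antisense partner in this table.

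**Figure D1:**
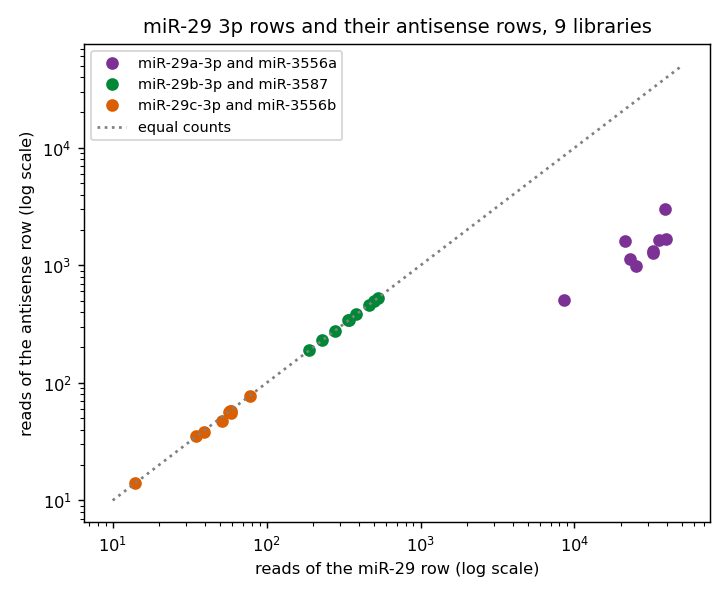
Reads of each 3p row of the family (x axis, log scale) against reads of the row annotated on the opposite strand (y axis, log scale), 1 point per library. The pairs of miR-29b-3p and miR-29c-3p lie on or at the dotted line of equal counts, and miR-3556a lies far below it, at 3.93% to 7.70% of miR-29a-3p.

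The libraries held 2878910 to 8862560 miRNA reads. FFSS replicates 1 to 3 held 2878910, 7082142 and 3896403, and every P9 and P3 library at least 7522702, so depth differed with the group. Of the 726 rows, 439 passed a filter on low counts, and all 6 miR-29 rows did. Of 4 cartilage miRNAs (both arms of miR-140 and of miR-455), none was at 0 in any library, with summed levels of 2590 to 3847 CPM (reads per 1000000 miRNA reads) in P9, 6077 to 7202 CPM in FFSS and 4150 to 7370 CPM in P3. P9 replicate 3 and FFSS replicate 1 stood apart from their groups, with correlations of log CPM to the other libraries of the group of 0.963 and 0.969 for P9 replicate 3 and of 0.967 and 0.977 for FFSS replicate 1. The value of P9 replicate 3 with P3 replicate 2, a control, was 0.976, higher than with either other P9 library. The other same-group pairs reached 0.987 to 0.995.

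miR-29a-3p made up nearly the whole family. It took 96.3% to 98.6% of the miR-29 reads of a library and ranked 26th to 34th of all rows. miR-29b-3p followed with 0.941% to 2.15%, and each of the other rows stayed at or below 1.12%. By mean level over all libraries the order was miR-29a-3p, miR-29b-3p, miR-29c-5p, miR-29c-3p, miR-29a-5p and miR-29b-5p. The ranges of miR-29c-5p, miR-29c-3p and miR-29a-5p overlapped, so no order holds among them. These are shares of reads, and small RNA ligation recovers sequences unequally, so a level set between members is a statement about reads.

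Summed over the 6 rows, the family stood at 4743, 4165 and 2859 CPM in P9 replicates 1 to 3, at 3067, 5592 and 5539 CPM in FFSS replicates 1 to 3, and at 4722, 3393 and 3728 CPM in P3 replicates 1 to 3. The means were 3922 ± 965 CPM in P9, 4733 ± 1443 CPM in FFSS and 3948 ± 691 CPM in P3 (SD, n = 3 each), and the ranges of all groups overlapped. By cluster, the arms of miR-29a averaged 3869 ± 958 CPM in P9, 4634 ± 1449 CPM in FFSS and 3879 ± 690 CPM in P3. The arms of miR-29c with miR-29b-5p, from the other cluster, averaged 14.8 ± 1.92 CPM in P9, 29.8 ± 10.3 CPM in FFSS and 13.7 ± 1.56 CPM in P3. For this second sum the lowest FFSS library, at 19.3 CPM, lay above the highest P9 library, at 17.0 CPM, and the highest P3 library, at 15.5 CPM. Of single rows, 41.5% did not overlap in CPM between FFSS and P3, in either direction, and 42.8% between P9 and FFSS. In FFSS replicate 1, miR-29c-5p alone gave 34.4 of the 39.9 CPM.

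**Figure D2:**
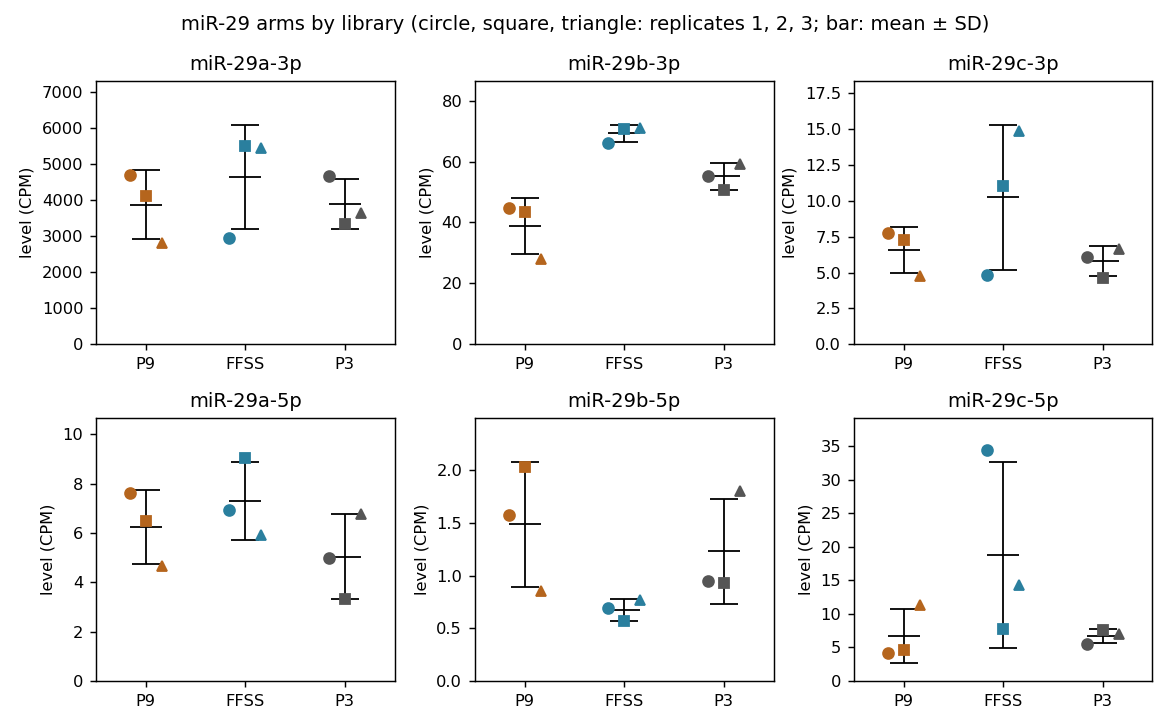
Level of each miR-29 arm (CPM, y axis from 0, a scale of its own in each panel) in the P9, FFSS and P3 libraries, with the mean and SD of 3 libraries. The miR-29b-3p groups do not overlap in CPM, but after TMM scaling between libraries only P9 and FFSS stay apart. Of all rows, 25.3% did not overlap in CPM, in either direction, for P9 against P3, 41.5% for FFSS against P3 and 42.8% for P9 against FFSS. FFSS replicate 1 is the lowest FFSS library for miR-29a-3p and miR-29c-3p and the highest of all libraries for miR-29c-5p, at 34.4 CPM.

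Replicative senescence was the question behind passage 9 against passage 3. None of the 6 miR-29 rows changed by the edgeR test at an adjusted p under 0.05 over all 439 rows, where 7.29% of rows were called, 3.87% higher and 3.42% lower. None had an unadjusted p under 0.05 either, and DESeq2 called 0 of the 6, where it called 25 of all rows higher and 21 lower. The median log2 fold change of the 6 was 0.16, against 0.06 over all rows tested.

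miR-29a-3p, the bulk of the family, read 4677, 4101 and 2809 CPM in P9 replicates 1 to 3 and 4649, 3326 and 3647 CPM in P3 replicates 1 to 3. The groups overlapped, and the log2 fold change was 0.06 (SE 0.26, adjusted p = 0.956). Its 95% interval ran from -0.50 to 0.61, which is 0.708-fold to 1.52-fold. miR-29b-3p read 44.7, 43.5 and 28.1 CPM in P9 and 55.2, 50.8 and 59.4 CPM in P3. All P9 libraries lay below all P3 libraries in CPM, as was the case in either direction for 25.3% of rows, but the groups overlapped after TMM scaling, at 47.6 in P9 replicate 2 and 47.3 in P3 replicate 1. The log2 fold change was -0.46 (SE 0.29, adjusted p = 0.470). Without P9 replicate 3, its lowest library, the value was -0.31 (adjusted p = 0.623).

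miR-29c-3p, with 35 to 59 reads per library in these groups, read 7.75, 7.25 and 4.77 CPM in P9 and 6.06, 4.65 and 6.66 CPM in P3, a log2 fold change of 0.23 (SE 0.40, adjusted p = 0.837). The groups overlapped here and for each 5p arm. miR-29a-5p averaged 6.25 ± 1.5 CPM in P9 and 5.03 ± 1.72 CPM in P3 (log2 fold change 0.35, SE 0.40). miR-29b-5p averaged 1.49 ± 0.594 CPM in P9 and 1.23 ± 0.499 CPM in P3 (0.31, SE 0.52), from 7 to 16 reads a library.

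miR-29c-5p read 4.20, 4.58 and 11.4 CPM in P9 and 5.47, 7.58 and 7.0 CPM in P3. P9 replicate 3 lay above and P9 replicates 1 and 2 below every P3 library. The log2 fold change was 0.09 (SE 0.59, adjusted p = 0.970), and without P9 replicate 3 it turned to -0.60 (adjusted p = 0.623). Leaving out that library gave 0.20 for miR-29a-3p, 0.39 for miR-29c-3p and 0.56 for miR-29b-5p, with no call.

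Ratios between 3p arms were compared within each library, where 3 libraries against 3 cannot give an exact permutation p under 0.1 and so cannot pass 0.05. Reads of miR-29b-3p came to 0.956%, 1.06% and 1.0% of those of miR-29a-3p in P9, and to 1.19%, 1.53% and 1.63% in P3, so every P9 library lay below every P3 library. The difference of the log2 ratio was -0.51, that is 0.701-fold (two-sided exact permutation p = 0.1, the smallest possible, adjusted p = 0.3 over 9 ratio tests). The log2 ratio of miR-29b-3p to miR-29c-3p was 2.55 ± 0.0289 in P9 and 3.25 ± 0.157 in P3 (SD, n = 3 each), with every P9 library below every P3 library. This difference was -0.70, that is 0.614-fold (exact permutation p = 0.1, adjusted p = 0.3), and lay between -0.76 and -0.61 when any 1 library of these groups was left out. It rests on 35 to 59 miR-29c-3p reads a library. The 39 reads of P9 replicate 3 have a 95% counting interval of 27.7 to 53.3, so the small SD in P9 is not a measure of precision. The log2 ratio of miR-29c-3p to miR-29a-3p overlapped between the groups (-9.18 ± 0.0467 in P9 and -9.37 ± 0.254 in P3, exact permutation p = 0.4, adjusted p = 0.6). None of these ratios depends on scaling between libraries.

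**Figure D3:**
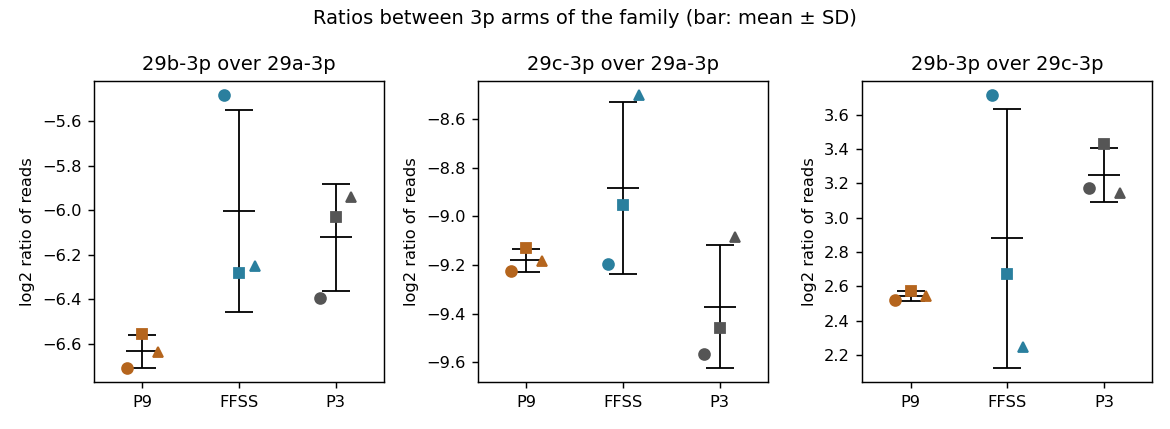
Log2 ratios of reads between the 3p arms of the family in each library (points), with mean and SD of 3 libraries per group. The P9 points are the lowest for miR-29b-3p over miR-29a-3p and lie close together in all 3 panels, and FFSS replicate 1 (circle) is the highest library for both ratios of miR-29b-3p.

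Mechanical load was the question behind FFSS against P3. Again 0 of 6 miR-29 rows passed the edgeR test, in a comparison that called 20.5% of all rows (6.83% higher and 13.7% lower), and 1 had an unadjusted p under 0.05. DESeq2 called 1, miR-29c-5p, where it called 43 of the 439 rows higher and 75 lower. The median log2 fold change of the 6 was 0.40, against 0.02 over all rows.

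miR-29a-3p read 2955, 5493 and 5432 CPM in FFSS replicates 1 to 3, against 4649, 3326 and 3647 CPM in P3. FFSS replicate 1 lay below every P3 library and the other FFSS libraries above. The log2 fold change was 0.21 (SE 0.26, adjusted p = 0.564), with a 95% interval of -0.34 to 0.77, and without FFSS replicate 2 it turned to -0.05. miR-29b-3p read 66.0, 70.6 and 71.1 CPM in FFSS, against 55.2, 50.8 and 59.4 CPM in P3. The FFSS libraries lay above the P3 libraries in CPM, with 41.5% of rows not overlapping in either direction, but TMM scaling brought FFSS replicate 3 to 60.2, below P3 replicate 3 at 62.3. FFSS over P3 came to 0.28 on the log2 scale (SE 0.29, adjusted p = 0.481). It was 0.16 without FFSS replicate 1, 0.19 without FFSS replicate 2, 0.11 without P3 replicate 1 and 0.17 without P9 replicate 1.

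miR-29c-3p read 4.86, 11.0 and 14.9 CPM in FFSS, the first from 14 reads, against 6.06, 4.65 and 6.66 CPM in P3. FFSS replicates 2 and 3 stood above the P3 libraries and FFSS replicate 1 among them. FFSS over P3 came to 0.76 on the log2 scale (SE 0.40, adjusted p = 0.192). With P9 replicate 3 and FFSS replicate 1 both left out, a choice made after seeing the data, it was 0.96 (SE 0.30, adjusted p = 0.0157).

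miR-29c-5p had the highest log2 fold change of the family. It read 34.4, 7.77 and 14.4 CPM in FFSS, against 5.47, 7.58 and 7.0 CPM in P3, so the FFSS libraries lay above the P3 libraries, FFSS replicate 2 only just, and the groups overlapped after TMM scaling. Its change was 1.44 on the log2 scale (SE 0.60, adjusted p = 0.103). It passed in DESeq2 (1.51, adjusted p = 0.0443) and without P9 replicate 3 (1.40, adjusted p = 0.0463). Without FFSS replicate 1 the value was 0.46 (adjusted p = 0.557), and without both libraries that stood apart 0.48 (adjusted p = 0.256).

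The other 5p arms held few reads. miR-29b-5p had 2, 4 and 3 reads in FFSS, against 8, 7 and 16 reads in P3, or 0.676 ± 0.104 CPM in FFSS and 1.23 ± 0.499 CPM in P3. These groups did not overlap, as was the case in CPM, in either direction, for 41.5% of all rows. The row passed the filter only through P9 and P3 libraries, and was not kept in a fit of FFSS and P3 alone. Its lack of overlap is therefore no support for a change. The log2 fold change of -0.95 (SE 0.63, adjusted p = 0.282) had a 95% interval of -2.32 to 0.42. miR-29a-5p read 6.95, 9.04 and 5.90 CPM in FFSS and 4.99, 3.32 and 6.77 CPM in P3 (0.52, SE 0.40, adjusted p = 0.358).

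With all libraries, each ratio between 3p arms overlapped between FFSS and P3. miR-29b-3p reads were 2.24%, 1.29% and 1.31% of miR-29a-3p reads in FFSS and 1.19%, 1.53% and 1.63% in P3 (exact permutation p = 0.8, adjusted p = 0.8). The log2 difference of 0.12 turned to -0.14 without FFSS replicate 1 and to -0.019 without P3 replicate 1. The log2 ratio of miR-29b-3p to miR-29c-3p was 3.72, 2.67 and 2.25 in FFSS and 3.17, 3.43 and 3.15 in P3, a difference of -0.37 (exact permutation p = 0.5, adjusted p = 0.643). FFSS replicate 1 lay above every P3 library and the other FFSS libraries below. Without FFSS replicate 1 the difference was -0.79 with no overlap (exact permutation p = 0.1, the smallest possible), and without FFSS replicate 3 it was -0.055. miR-29c-3p reads were 0.170%, 0.202% and 0.276% of miR-29a-3p reads in FFSS and 0.132%, 0.142% and 0.184% in P3 (exact permutation p = 0.2, adjusted p = 0.45). Across all libraries miR-29c-3p thus stayed at 0.132% to 0.276% of a sequence that differs from it at 1 base. The sources used here do not give the mismatches allowed in counting, and the part of misread miR-29a-3p in the miR-29c-3p row was not tested.

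Set directly against FFSS, passage 9 again showed 0 of 6 miR-29 rows past the edgeR test, while 34.4% of all rows were called (22.6% higher and 11.8% lower), with 2 rows at an unadjusted p under 0.05 and a median log2 fold change of -0.34 (0.02 over all rows). DESeq2 called 2, miR-29b-3p and miR-29c-5p, where it called 105 of the 439 rows higher and 78 lower. miR-29b-3p averaged 38.7 ± 9.22 CPM in P9 and 69.2 ± 2.81 CPM in FFSS, and all P9 libraries lay below all FFSS libraries both in CPM and after TMM scaling, where 42.8% of rows did not overlap in CPM. The log2 fold change was -0.75 (SE 0.29, adjusted p = 0.0577), just short of the threshold. It passed with DESeq2 size factors (-0.80, adjusted p = 0.0431), with library size only (-0.84, adjusted p = 0.0497), in DESeq2 (-0.80, adjusted p = 0.0155) and with limma on log2(TPM + 1) (-0.85, adjusted p = 0.0429) or log2(TPM + 10) (-0.72, adjusted p = 0.0396). It lay further from the threshold with no filter (-0.62, adjusted p = 0.232), in a fit of only these groups (-0.72, adjusted p = 0.122) and with the replicate block (-0.76, adjusted p = 0.0924). Leaving out any 1 library gave -0.80 to -0.54, with no call. Its share of miR-29a-3p reads was also lower in every P9 library than in any FFSS library, at 0.646-fold (exact permutation p = 0.1, adjusted p = 0.3). On the log2 scale this was -0.63, and -0.37 without FFSS replicate 1.

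The other rows overlapped or held few reads. miR-29c-5p averaged 6.72 ± 4.04 CPM in P9 and 18.8 ± 13.9 CPM in FFSS, with overlapping groups and a log2 fold change of -1.36 (SE 0.60, adjusted p = 0.0946). Without P9 replicate 3 it was -2.0 (adjusted p = 0.0146), and without FFSS replicate 2 it was -1.70 (adjusted p = 0.0495). Without FFSS replicate 1 it was -0.34 (adjusted p = 0.654). With both P9 replicate 3 and FFSS replicate 1 left out, a choice made after seeing the data, it was -1.06 (adjusted p = 0.0236). miR-29b-5p averaged 1.49 ± 0.594 CPM in P9 and 0.676 ± 0.104 CPM in FFSS (1.25, SE 0.63, adjusted p = 0.132). These groups did not overlap, as was the case in CPM, in either direction, for 42.8% of all rows. The filter kept this row only through P9 and P3 libraries, so the lack of overlap is no support for a change. miR-29a-3p, miR-29c-3p and miR-29a-5p had values of -0.16, -0.53 and -0.16, none past the test. Without P9 replicate 3 these were 0.066, -0.31 and 0.038.

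**Figure D4:**
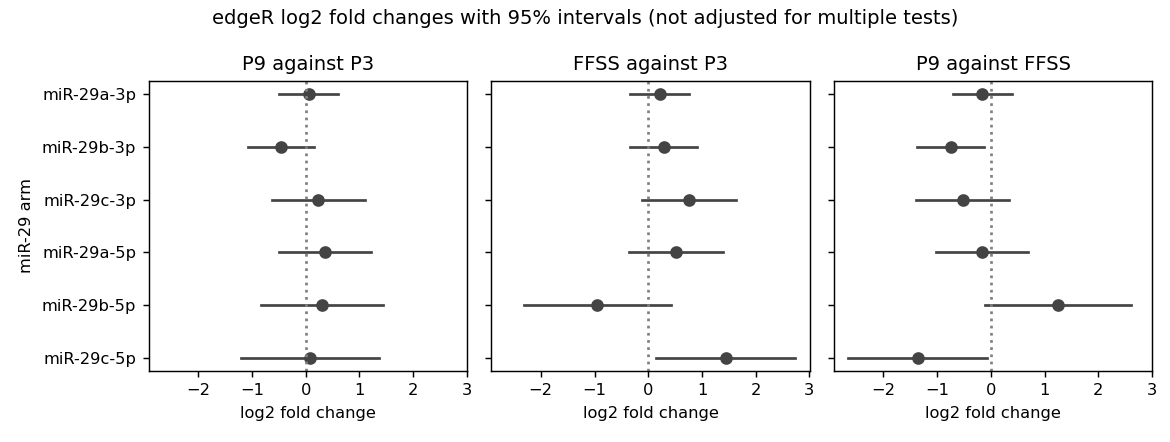
Log2 fold change of each miR-29 arm (points, edgeR) with its 95% interval, not adjusted for multiple tests, for the 3 comparisons. The intervals of miR-29a-3p are the narrowest of the family in each panel, from -0.50 to 0.61 for P9 against P3, and those of miR-29b-5p and miR-29c-5p are the widest.

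The use of hairpin arms differed between the miR-29 hairpins in every library. For Mir29a, whose sequence is printed above, the 5p arm took 0.0998% to 0.235% of arm reads. For miR-29b, 5p reads were 0.794% to 4.47% of those on both arms, the 3p arm being shared by 2 copies. For Mir29c neither arm led in all libraries. The 5p share was 35.2%, 38.7% and 70.5% in P9 replicates 1 to 3, 87.6%, 41.4% and 49.1% in FFSS replicates 1 to 3, and 47.4%, 62.0% and 51.2% in P3 replicates 1 to 3. The exact 95% binomial interval of FFSS replicate 1 was 80.1% to 93.1% and that of P9 replicate 3 was 61.9% to 78.1%, both wholly above 50%, as was that of P3 replicate 2, at 51.2% to 71.9%. Those of P9 replicate 1, at 25.4% to 45.9%, and P9 replicate 2, at 28.8% to 49.4%, lay wholly below it. Intervals cover counting error only.

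The log2 ratio of 5p to 3p reads was tested with limma over 89 hairpins. For Mir29c it was -0.10 ± 1.16 in P9 and 0.21 ± 0.438 in P3, a difference of -0.30 (SE 0.78, adjusted p = 0.989), in a comparison that called 0% of hairpins. In FFSS it was 0.74 ± 1.78, which differed from P3 by 0.54 (SE 0.78, adjusted p = 0.635), where 4.49% of hairpins were called. Without FFSS replicate 1 this difference turned to -0.48 (adjusted p = 0.599). P9 differed from FFSS by -0.84 (SE 0.78, adjusted p = 0.514), with 7.87% called, and by 0.18 (adjusted p = 0.841) without FFSS replicate 1. The corresponding differences for Mir29a were 0.36, 0.37 and -0.0045, none past the test. Without FFSS replicate 1, that of FFSS from P3 was 0.089 (adjusted p = 0.867) and that of P9 from FFSS 0.27 (adjusted p = 0.626).

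**Figure D5:**
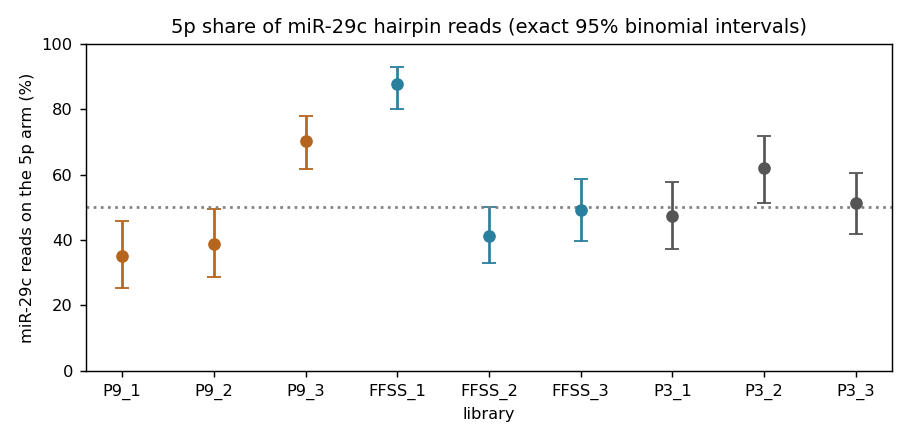
Share of miR-29c hairpin reads on the 5p arm (percent, y axis) in each library, with exact 95% binomial intervals that cover counting error only. FFSS replicate 1, at 87.6%, and P9 replicate 3, at 70.5%, are the highest, and the other 7 libraries lie between 35.2% and 62.0%.

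The libraries highest in miR-29c-5p were also highest in the 1 liver marker read and in the sum of blood markers. miR-122-5p, the main miRNA of hepatocytes, read 3.94, 3.43 and 22.9 CPM in P9, 51.4, 15.5 and 30.5 CPM in FFSS, and 9.87, 11.7 and 10.2 CPM in P3. FFSS replicate 1, FFSS replicate 3 and P9 replicate 3 were in that order the highest for both. The 6 muscle markers summed to 218 to 583 CPM in P9, 289 to 575 CPM in FFSS and 212 to 250 CPM in P3, with the 2 highest sums in P9 replicate 3 and FFSS replicate 1. Most of both sums was miR-1b, at 462 and 457 CPM. miR-1-3p and miR-133a-3p were also highest in these libraries, while miR-499-5p was lowest there, at 49.0 and 36.8 CPM. miR-206-3p stood at 26.1 CPM in FFSS replicate 1 but at 9.78 CPM in P9 replicate 3, and miR-133b-3p was highest in FFSS replicate 3. The 7 blood markers summed to 73.1 to 311 CPM in P9, 171 to 603 CPM in FFSS and 79.5 to 160 CPM in P3, up to 2 of them being at 0 in a library. FFSS replicate 1, FFSS replicate 3 and P9 replicate 3 were again highest in that order, at 603, 399 and 311 CPM, with P9 replicate 2 close behind at 304 CPM. Among the blood markers, the defining miR-451-5p was at 0 in no library and miR-223-3p was at 0 in P9 replicate 3 and FFSS replicates 1 and 2. The 7 epithelial markers summed to 25.2 to 77.7 CPM in P9, with 3 at 0 in P9 replicate 3, 90.4 to 226 CPM in FFSS and 81.1 to 102 CPM in P3. Both endothelial markers were detected in every library, with sums of 275 to 491 CPM in P9, 556 to 695 CPM in FFSS and 386 to 406 CPM in P3. The 6 nervous system markers summed to 994 to 2424 CPM in P9, 624 to 1656 CPM in FFSS and 748 to 1567 CPM in P3. Most of each sum was miR-128-3p and miR-129-5p, while miR-124-3p was at 0 in P9 replicates 1 and 2 and at most 1.39 CPM in any library. The part of other cells or of carried-over RNA in the miR-29c-5p values was not tested. In bulk samples, fewer cells of a type and less RNA per cell cannot be told apart.

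Other miRNAs reported to act on extracellular matrix or fibrosis were read as a list of 29, of which 25 were tested. At passage 9, 1 of the 25 rose and 0 fell, where 7.29% of all rows were called, with a median log2 fold change of 0.04 (0.06 over all rows). It was miR-143-3p, known from smooth muscle, at 154434 ± 22304 CPM in P9 and 62078 ± 6073 CPM in P3 (1.35, adjusted p = 0.00348). The next by p were miR-140-5p, miR-140-3p and miR-145-5p, at -1.12, -0.86 and 1.04, which did not pass (adjusted p = 0.0679, 0.0763 and 0.0788).

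Under shear stress 2 of the 25 rose and 2 fell, where 6.83% of all rows rose and 13.7% fell (median 0.13, against 0.02 over all rows). miR-145-5p, in human and mouse made from 1 transcript with miR-143, fell to 2047 ± 705 CPM in FFSS, against 5958 ± 581 CPM in P3 (-1.57, adjusted p = 0.00944). miR-19a-3p, of the miR-17-92 cluster, fell to 0.265 ± 0.257 CPM in FFSS, against 3.12 ± 1.04 CPM in P3 (-3.39, SE 0.76, adjusted p = 0.00985). Its FFSS level was near 0, and the row passed the filter only through P9 and P3 libraries, so the size of this change is poorly known. miR-24-3p rose to 27676 ± 7873 CPM in FFSS, against 14933 ± 1875 CPM in P3 (0.84, adjusted p = 0.0459), and lost its call when any P3 library, either of P9 replicates 1 and 2, or either of FFSS replicates 2 and 3 was removed. miR-200b-3p, an epithelial miRNA, rose to 11.9 ± 6.89 CPM in FFSS, against 4.01 ± 0.656 CPM in P3 (1.53, adjusted p = 0.0399), and lost its call when FFSS replicate 1, any P3 library, or either of P9 replicates 1 and 2 was removed. The replicate block and limma on log2(TPM + 10) each also ended both of these calls. No filter and limma on log2(TPM + 1) each ended that on miR-24-3p. Leaving out both P9 replicate 3 and FFSS replicate 1 ended that on miR-200b-3p.

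Between P9 and FFSS, 5 of the 25 were higher in P9 and 4 lower, where 22.6% of all rows were higher and 11.8% lower, a share of calls near that over all rows (median -0.14, against 0.02 over all rows). miR-145-5p, miR-19a-3p, miR-18a-5p, miR-143-3p and miR-21-5p, a miRNA linked to fibrosis, were higher by 2.61, 3.52, 2.26, 1.48 and 1.35 on the log2 scale. FFSS levels of miR-19a-3p (0.265 ± 0.257 CPM) and miR-18a-5p (1.18 ± 0.187 CPM) were low, and the SEs of their fold changes were 0.75 and 0.60. miR-140-3p, a cartilage miRNA, and miR-214-3p, miR-24-3p and miR-26a-5p had values of -1.06, -1.03, -0.89 and -0.71. The calls on miR-24-3p and miR-26a-5p were lost on removing FFSS replicate 2, any P3 library, or either of P9 replicates 1 and 2, that on miR-24-3p also without FFSS replicate 3. A fit of only the 2 groups ended both calls, and no filter and the block each ended that on miR-26a-5p.

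Like miR-29, a list of 9 miRNAs reported to act on DNA methyltransferases was read, all tested. The shares called over all rows were 7.29% for P9 against P3, 20.5% for FFSS against P3 and 34.4% for P9 against FFSS. miR-143-3p, which is in both lists, was the 1 that passed at passage 9, ahead of miR-152-3p, miR-148a-3p and miR-148b-3p at -0.44, -0.55 and -0.40 (adjusted p = 0.451, 0.506 and 0.565). None of the 9 passed under shear stress by edgeR, with 0 at an unadjusted p under 0.05. The smallest p there belonged to miR-126a-3p, miR-152-3p, miR-342-3p and miR-143-3p, at 0.61, 0.39, 0.52 and -0.13 (adjusted p = 0.192, 0.271, 0.285 and 0.727). Between P9 and FFSS, miR-143-3p was higher and miR-152-3p lower in P9, the second at 4968 ± 1683 CPM in P9 and 9244 ± 1017 CPM in FFSS (-0.83, adjusted p = 0.0246). That call was lost without P3 replicate 1 or 3, P9 replicate 2 or 3, or FFSS replicate 1 or 2. No filter, a fit of only the 2 groups, and leaving out both P9 replicate 3 and FFSS replicate 1 each ended it too. miR-126a-3p and miR-148a-3p came next, at -0.69 and -0.74 (adjusted p = 0.110 and 0.143).

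The rows most like each 3p arm were sought among 179 others with a mean of at least 50 CPM, by the root mean square difference of TMM-scaled log2 CPM over the 9 libraries, each row centred on its own mean. Beside miR-3587, which is identical to it in counts, miR-29b-3p lay closest to miR-152-3p, at 0.17, and miR-218b, at 0.19. miR-29a-3p lay closest to miR-185-5p, miR-192-5p and miR-194-5p, at 0.18, 0.19 and 0.20. miR-29c-3p lay closest to miR-3556a, miR-27a-3p and miR-192-5p, at 0.25 to 0.28. Over all 9 libraries miR-29a-3p was among the steadier miRNAs, with an SD of 0.27 in TMM-scaled log2 CPM, the 15th lowest of 439, and miR-29c-5p varied most in the family, with 0.97.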

How the data were processed

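Small RNA of 9 libraries had been sequenced from 1 end, per the labels' protocols. The deposited table gave a read count per miRNA row, per the file headers, and a TPM value, per the file headers, equal within 4.85e-05 to each row's share of its library's total, times 1000000. The submitters' processing notes list Bowtie and Rnor_6.0. The sources used here give no version, counter, mismatch or strand setting.

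Counts were tested with edgeR 4.0.16 (R 4.3.3): filterByExpr, which kept 439 of 726 rows and removed 0.00685% of reads, TMM scaling, 1 model of all 9 libraries and the robust quasi-likelihood test, with Benjamini-Hochberg adjustment over the 439. Adjusted p-values of single rows come from this test unless another tool is named, and a row was called under 0.05. SE is the log2 fold change over the root of the F statistic. Arm ratios (0.5 added, both arms averaging 20 counts or more) were tested with limma 3.58.1, and ratios between 3p arms (0.5 added) with exact permutation, two-sided. DESeq2 1.42.0, limma on log2(TPM + 1) and log2(TPM + 10), other scalings and filters, a fit without the uninvolved group, a replicate block and leaving out each library were alternatives. Leaving out both P9 replicate 3 and FFSS replicate 1, and removing the 3 antisense rows, were choices made after seeing the data, wherever they are reported.

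The miR-29 rows and lists were chosen with earlier results of these data known. Named are all 6 rows, list members that were called or had 1 of the 4 smallest p-values, and the 3 nearest rows of each 3p arm. The antisense rows were chosen after their values were seen. Every column used was matched to a labelled library.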

Additional observations from a re-analysis of the deposited data

How the results depend on the processing

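No setting changed the count of 0 miR-29 rows called in P9 against P3. For FFSS against P3 it became 1 in DESeq2 and 1 without both P9 replicate 3 and FFSS replicate 1, and ranged from 0 to 1 when each library was left out. For P9 against FFSS it became 1 with DESeq2 size factors, library size only, limma on log2(TPM + 1), limma on log2(TPM + 10) or without both libraries, 2 in DESeq2, and 0 to 1 when each library was left out.

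Counts over all rows moved more. Leaving out each library gave 8 to 26 higher and 7 to 25 lower for P9 against P3 (17 and 15 with all), 3 to 53 and 32 to 94 for FFSS against P3 (30 and 60), and 78 to 123 and 28 to 80 for P9 against FFSS (99 and 52). Without both libraries there were 48 higher and 41 lower, 68 higher and 107 lower, and 84 lower in these comparisons. For FFSS against P3 the number higher was 15 with no filter and 51 in a fit of only the 2 groups, and the number lower 39 with a mean of at least 50 counts. For P9 against FFSS the number lower was 81 on log2(TPM + 10) and 28 with only the 2 groups.

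Some values changed sign, several of them near 0. In P9 against P3, miR-29a-3p was -0.0044 with library size only and -0.022 on both log2(TPM) scales, and -0.053 to 0.20 leaving out each library. miR-29c-5p was -0.10 on log2(TPM + 1), -0.021 on log2(TPM + 10), -0.57 without both libraries and -0.60 to 0.34 leaving out each. Leaving out each library gave -0.052 to 0.31 for miR-29a-3p in FFSS against P3, and -0.24 to 0.11 for miR-29a-3p and -0.35 to 0.13 for miR-29a-5p in P9 against FFSS, where miR-29a-5p was 0.074 without both libraries. The Mir29c arm ratio ranged from -0.97 to 0.087, -0.48 to 1.16 and -1.51 to 0.18 in the 3 comparisons, and was -0.48 without both libraries for FFSS against P3. The Mir29a arm ratio in P9 against FFSS ranged from -0.29 to 0.27 and was 0.26 without both. The ratio of miR-29b-3p to miR-29a-3p in FFSS against P3 ranged from -0.14 to 0.26, and that to miR-29c-3p in P9 against FFSS from -0.65 to 0.086. The cause was not tested, and none of these values passed a test. Arm ratios of Mir29a have no value where both arms must average 50 counts.

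With the replicate block, 9 rows were higher in FFSS against P3, and miR-29c-5p stood at -0.017 in P9 against P3. No miR-29 call changed under the block. Same-numbered libraries correlated at -0.502 to 0.144 in their deviations from group means, and a library was closest to its own number in 5 of 18 cases. With 3 libraries a group, these values cannot show whether the numbers pair the samples. Removing the 3 antisense rows, a choice made after seeing the data, gave 0 miR-29 calls in each comparison. Depth limits miR-29b-5p most, at 2 to 16 reads per library.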

Other observations

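The row miR-3556a, annotated opposite miR-29a-3p, read 177, 423 and 413 CPM in FFSS replicates 1 to 3, against 201, 131 and 145 CPM in P3 replicates 1 to 3. Its groups overlapped in CPM. Its log2 fold change was 1.05 (SE 0.33, edgeR adjusted p = 0.0400), while miR-29a-3p stood at 0.21. As a share of miR-29a-3p reads it came to 6.0%, 7.70% and 7.60% in FFSS and 4.31%, 3.93% and 3.97% in P3, without overlap, and to 4.59%, 4.11% and 4.90% in P9. The call was lost without any P3 library (adjusted p up to 0.135), P9 replicate 1 (0.0752) or 2 (0.0687), or FFSS replicate 2 (0.147) or 3 (0.126). It was also lost with library size only (0.0605), no filter (0.0808), limma on log2(TPM + 1) (0.0785) and log2(TPM + 10) (0.0781) and the replicate block (0.0834). The strand and length of these reads were not analysed here. The row was chosen after its values were seen.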
